A study of Mus musculus with 12 samples.

Results

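Acetylation of histone H3 at lysine 9 (H3K9ac), which marks promoters and enhancers in use, was examined in mouse liver at 10 genes of mitochondrial NADPH supply and antioxidant defence: Nnt, Idh2, Me3, Sod2, Prdx3, Prdx5, Gsr, Txnrd2, Gpx1 and Cat. The members were listed by name and are 10 of the 21911 protein-coding genes of the GENCODE M21 annotation (mm10, the GRCm38 assembly) that were compared. For each of them, all peaks overlapping the gene body or the 5 kb either side of the gene start were collected from 6 peak lists. The study itself had singled out Nnt in a search for B2 retrotransposon copies that differ between the strains and lie at the edge of an H3K9ac peak, so this locus was chosen on the same libraries.

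The libraries were made by chromatin immunoprecipitation and sequencing (ChIP-seq) from fixed adult livers with the antibody ab4441. B6 (C57BL/6J, the source of the reference assembly) and MSM (MSM/Ms, inbred from wild mice caught in Japan) were represented by 2 libraries each. The hybrids from B6 dams mated with MSM sires (F1 BM) and from the reciprocal cross, in which MSM was the maternal strain (F1 MB), had 1 library each, so their values have no replicate error. None of the groups carried a treatment, and per the study the 2 libraries of a strain came from 2 individuals. A further 6 samples were input DNA of the same groups and were not analysed here.

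Mitochondria of hepatocytes produce superoxide as a by-product of respiration. Superoxide dismutase 2 turns it into hydrogen peroxide, which is then reduced by peroxiredoxins with electrons from thioredoxin, or by glutathione peroxidases with electrons from glutathione, or is split by catalase without any reductant. Thioredoxin and glutathione are recharged by their reductases at the expense of NADPH, and mitochondrial NADPH comes from transhydrogenase, isocitrate dehydrogenase and malic enzyme. Acetylation of H3K9 typically occupies the nucleosomes that flank the start site of an active gene, so that the length and height of a peak at a promoter describe the chromatin there and not the amount of transcript.

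The 6 lists held between 11619 (B6 replicate 2) and 22968 (B6 replicate 1) peaks, and the first of these covered 6.28 Mb and the second 16.02 Mb. The share of all genes with a promoter peak was lowest in the first (27.9%) and highest in the second (44.2%). The labelled tissue was checked against marker genes at the start of the principal transcript, the start that the annotation ranks first for the gene. All 8 hepatocyte markers examined (Alb, Apoa1, Ttr, Cps1, Hnf4a, Cyp2e1, Tat and Fgb) had a promoter peak in all 6 libraries. Of 8 markers of the other cell types a liver holds, 0 had one in all 6 libraries, and 3 had one in some of them: the endothelial genes Stab2 in 4 libraries and Pecam1 in 3, and the leukocyte gene Ptprc in 1. None of 8 markers of cells foreign to liver (Myod1, Neurod1, Ins2, Sftpc, Myh6, Umod, Gfap and Ddx4) had a promoter peak, although between 860 and 1678 bp were under peaks elsewhere within 5 kb of the start of Sftpc in all 6 libraries.

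A promoter peak was defined as a peak overlapping the 1 kb either side of the gene start. Of the 10 members, 7 had a promoter peak in all 6 libraries, whereas 23.6% of all protein-coding genes did. These were Nnt, Idh2, Prdx5, Gsr, Txnrd2, Gpx1 and Cat. With lists reduced to the same covered length the count was 4 of 10, against 11.4% of all genes, and Nnt, Idh2 and Gsr were no longer among them. Sod2 joined them when the start of its principal transcript was used, which lies 971 bp downstream of the gene start in the annotation. With principal starts the count was therefore 8 of 10, against 24% of all genes. Prdx3 had a promoter peak in 5 libraries and none in F1 MB, and Me3 had no peak in any library. A gene without any peak within 5 kb of its start was common in the genome, as 50.8% of the genes had none in any library.

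**Figure D1:**
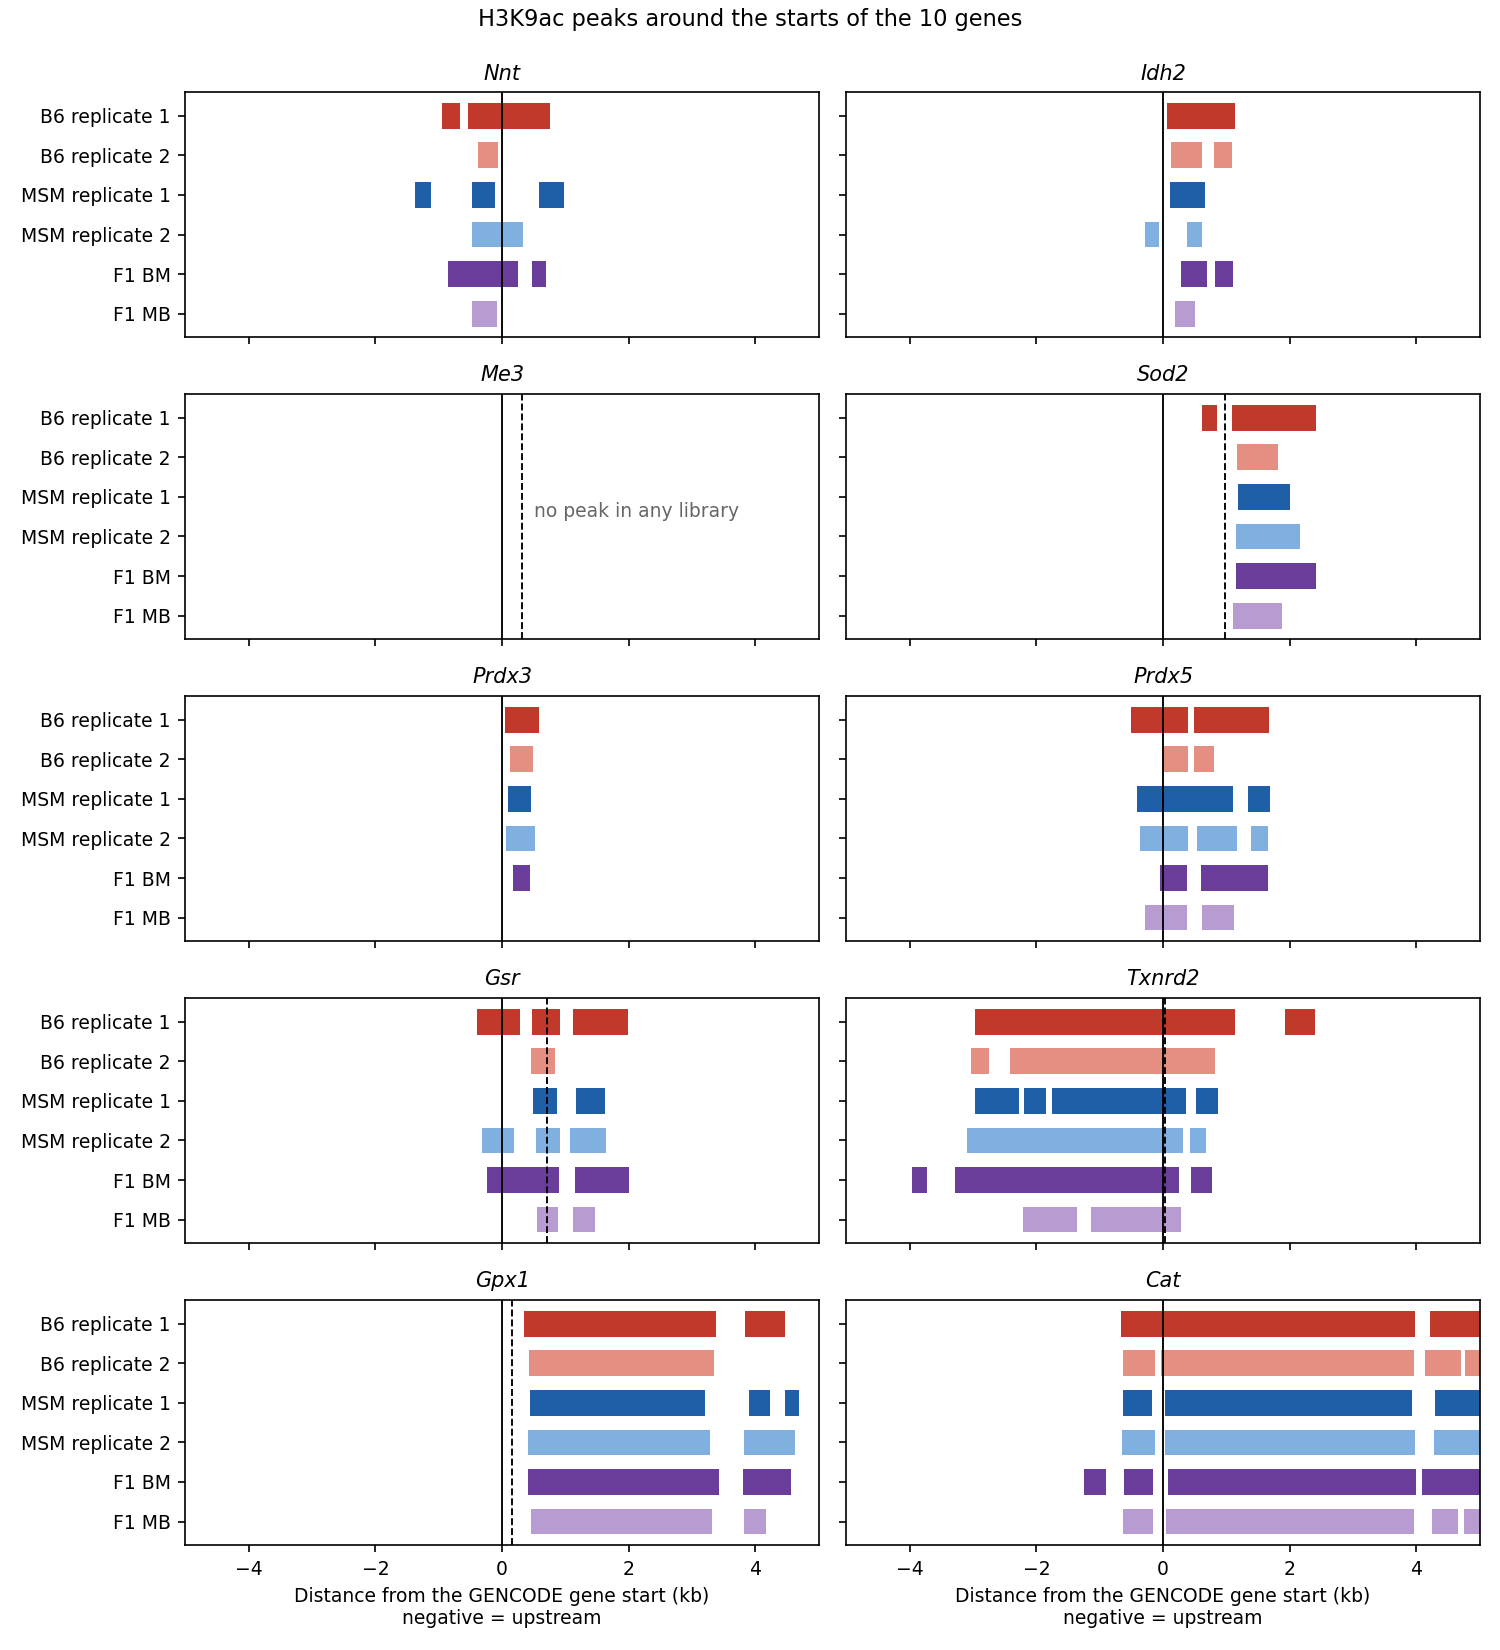
Positions of H3K9ac peaks (bars) within 5 kb either side of the gene start for the 10 genes, with 1 row for each library; the x axis gives the distance from the gene start in kb, the solid line marks the gene start and the dashed line the principal start where it differs. Cat, Gpx1 and Txnrd2 carried the longest stretches in every library, and Me3 had none. By median over the libraries, those of Idh2 and Prdx3 were the shortest among the genes with peaks.

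The sequences on which these positions can be followed are given for the B2 copy at Nnt and for the promoters of 3 members that differed most in length under peaks. The B2 copy was found by matching a consensus of young B2 copies to the reference genome. It lay at chr13:119409883-119410070 (GRCm38), 188 bp long, outside annotated genes, from 886 to 1073 bp upstream of the Nnt start and in the same orientation as Nnt. It was 96.8% identical to the consensus. The plus strand is printed, so the end nearer to Nnt comes first, and capitals mark the 61 bp under a peak of B6 replicate 1, the only library with a peak over the copy. Per the study the MSM allele lacks this copy, so no MSM read can stem from it and the 0 bp over it in the MSM libraries is no measurement of acetylation.
B2 copy at Nnt: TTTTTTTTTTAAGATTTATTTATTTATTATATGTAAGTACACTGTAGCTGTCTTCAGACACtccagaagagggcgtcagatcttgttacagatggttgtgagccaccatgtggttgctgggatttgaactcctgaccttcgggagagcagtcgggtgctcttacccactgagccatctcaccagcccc

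The promoters of Cat, Prdx3 and Me3 are shown because Cat had the highest median length under peaks over the 6 libraries, Prdx3 the lowest of the members with peaks, and Me3 no peak. They are the 250 bases before the start in RefSeq (GRCm38.p6), printed in the direction of the gene, and capitals mark the letters GGGCGG on either strand, the core of the GC box that Sp1-type factors bind. The Cat promoter lies at chr2:103485154-103485403 on the minus strand, that of Prdx3 at chr19:60874539-60874788 on the minus strand, and that of Me3 at chr7:89632568-89632817 on the plus strand.
Cat: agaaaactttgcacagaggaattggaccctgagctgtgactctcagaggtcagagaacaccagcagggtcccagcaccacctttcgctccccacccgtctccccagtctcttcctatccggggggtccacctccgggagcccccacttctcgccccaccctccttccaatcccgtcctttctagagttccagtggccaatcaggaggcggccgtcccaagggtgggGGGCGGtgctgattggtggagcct
Prdx3: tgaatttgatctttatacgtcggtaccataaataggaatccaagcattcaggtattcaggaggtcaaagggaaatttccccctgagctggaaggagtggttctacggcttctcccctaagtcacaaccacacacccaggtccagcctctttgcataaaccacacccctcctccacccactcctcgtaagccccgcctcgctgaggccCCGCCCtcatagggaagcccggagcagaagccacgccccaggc
Me3: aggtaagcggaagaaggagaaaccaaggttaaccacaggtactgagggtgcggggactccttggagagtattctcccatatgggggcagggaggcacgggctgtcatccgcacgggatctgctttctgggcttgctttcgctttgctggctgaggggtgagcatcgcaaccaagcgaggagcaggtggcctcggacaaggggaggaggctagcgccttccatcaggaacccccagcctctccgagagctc

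RefSeq promoters of 300 bases (250 before and 50 after the start) were matched for 8 of the 10 members, all but Nnt and Gsr. GGGCGG was present on either strand in 7 of the 8, against 48.0% of 16522 mouse promoters, and the exception was Me3. CCAAT occurred in 3 members (Idh2, Sod2 and Cat) against 38.7% of all promoters, and the Cat promoter held 4 matches. TATAAA occurred only in Prdx3 among the 8, against 12.9% of all promoters. The antioxidant response element core TGACNNNGC, which the factor encoded by Nfe2l2 binds, and the NRF1 motif were found in 0 of the 8, against 13.3% and 9.15% of all promoters. The ratio of observed to expected CpG was lowest in Cat (0.389) and highest in Prdx5 (0.803), with a median of 0.598 over all promoters. Thus the member with the longest acetylated stretch had the fewest CpGs for its base composition among the 8. The next lowest ratio was that of Me3 (0.519), which had no peak, while Txnrd2, second in median length under peaks, had 0.766. Among the 250 bases before the start, 0 of these matches overlapped a match of another motif. The matches describe letters in the windows only.

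Nnt encodes nicotinamide nucleotide transhydrogenase, the inner membrane enzyme that uses the proton gradient to make NADPH from NADH. The gene (ENSMUSG00000025453.18) lies on the minus strand at chr13:119335448-119408997. The length under peaks within 5 kb of its start was 1569 and 311 bp in the B6 libraries, 1013 and 805 bp in the MSM libraries, 1336 bp in F1 BM and 403 bp in F1 MB. Both MSM values lay between those of B6, and the groups overlapped. On average, 940 ± 890 bp were covered in B6 (SD, n = 2) against 909 ± 147 bp in MSM (SD, n = 2), and this difference of -31 bp was far below the pooled SD of 638 bp (two-sided exact permutation p = 1). With 2 libraries against 2, the smallest p that this test allows is 0.333, so no strain difference of a single gene could pass 0.05 here. The sign of the Nnt difference rested on single libraries, as it was 598 bp without B6 replicate 1, -660 bp without B6 replicate 2 and 73 bp without MSM replicate 2. With equally many peaks per list the difference was -93.5 bp (pooled SD 500 bp). With lists of the same covered length it was -399.5 bp (pooled SD 635 bp), and MSM replicate 1 then had 0 bp. Both values stayed below the pooled SD.

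The peaks at Nnt formed a region of 1928 bp, found in all 6 libraries, over the first exon (5' UTR) and the upstream flank. A core of 271 bp, from 110 to 380 bp upstream of the start, was under a peak in every library. On the upstream side the promoter domain, in which peaks no more than 500 bp apart were joined, reached 946 and 380 bp from the start in B6, 481 and 472 bp in MSM, 861 bp in F1 BM and 478 bp in F1 MB. The 2 MSM edges lay within 9 bp of each other and between the B6 edges. The start itself was under a peak in B6 replicate 1, MSM replicate 2 and F1 BM, and in the other 3 libraries the upstream peak ended between 70 and 110 bp before it.

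Because the locus was chosen for a peak edge at the B2 copy, the lengths on either side of the copy are given as a description. Of the 885 bp between the Nnt start and the copy, 749 and 311 bp were under peaks in B6, 372 and 472 bp in MSM, 861 bp in F1 BM and 403 bp in F1 MB. In the 1 kb on the far side of the copy, MSM replicate 1 had 240 bp under a peak and the other 5 libraries had 0 bp. This peak, from 1129 to 1368 bp upstream of the start, had a fold enrichment (the ratio of summit signal to the background that the peak caller assumed) of 5.68. No peak was called there in MSM replicate 2, and the domain of B6 replicate 1 ended 61 bp inside the copy. The difference between the strains beyond the copy, MSM minus B6, was 120 bp with a pooled SD of 120 bp, and it was 0 bp without MSM replicate 1.

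**Figure D2:**
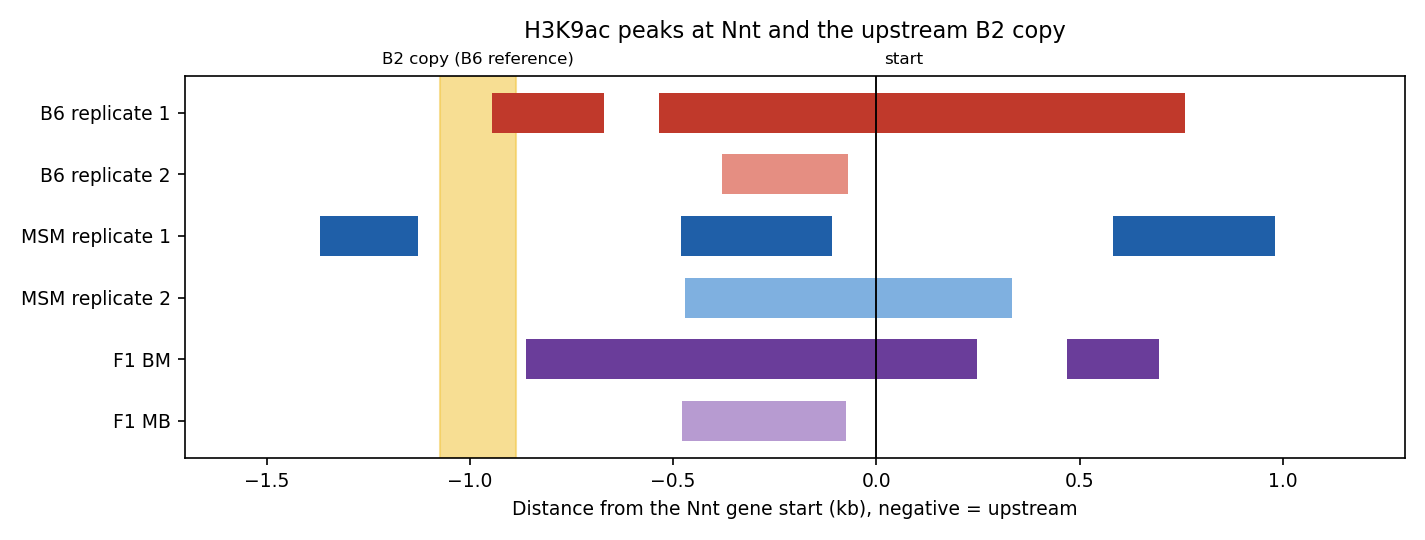
H3K9ac peaks (bars) around the Nnt start in the 6 libraries, with the distance from the start in kb on the x axis and the B2 copy of the B6 reference as a shaded band. The only peak beyond the copy was in MSM replicate 1, and the only peak reaching into it was in B6 replicate 1.

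The other 8 B2 copies at Nnt lay inside the gene, and 0 of them were touched by a peak. Over all members, 48 B2 copies of at least 80% identity were found in the gene bodies or the 5 kb around the starts. Of these, 40 lay inside the genes, and 3 of the 48 were touched by a peak. The share of copies touched by a peak over all genes was not computed, so these counts cannot be called low or high. Besides that at Nnt, the copies touched were 1 lying 366 to 556 bp upstream of the Gsr start, with 25 bp under a peak of B6 replicate 1, and 1 lying 2595 to 2745 bp inside Cat. The latter was wholly under peaks in all 6 libraries, and was 80.1% identical to the consensus. A B2 copy of at least 95% identity within 1500 bp upstream of the start, as at Nnt, was present at 152 (0.694%) of the 21911 genes.

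In fold enrichment, the highest peak at the Nnt promoter had values of 7.41 and 3.35 in B6, 4.23 and 5.72 in MSM, 2.59 in F1 BM and 3.49 in F1 MB. Because the scale of the fold differed between lists, each value was also ranked among all genes with a promoter peak in the same library. Nnt stood at the 52.4th and 7.65th percentile in B6, the 16.7th and 46.7th in MSM, the 8.97th in F1 BM and the 8.68th in F1 MB. By fold, the Nnt promoter was thus near the middle of the range in B6 replicate 1 and MSM replicate 2, and low in the other 4 libraries. Its length under peaks was ranked among the genes with any such length in the same library. By length, Nnt stood at the 73.2nd and 17.9th percentile in B6 and the 66.4th and 54.8th in MSM. It stood at the 72.4th in F1 BM and the 26.2nd in F1 MB. C57BL/6J carries a deletion of several Nnt exons, well inside the gene, and MSM reads from sequence absent in the B6 reference cannot be mapped; the peaks described here lie around the start of the gene.

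The 3 genes most like Nnt in length under peaks over the 6 libraries were Hyou1, Borcs8 and Mef2b. Hyou1, which encodes a chaperone of the endoplasmic reticulum, differed from Nnt by 75.3 bp on average, with 1595 and 310 bp in B6, 919 and 770 bp in MSM, 1240 bp in F1 BM and 603 bp in F1 MB. Borcs8 and Mef2b, which had identical values, differed by 78.2 bp.

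Idh2 encodes the mitochondrial isocitrate dehydrogenase that reduces NADP+. The gene lies on the minus strand at chr7:80094846-80115392. Its length under peaks was 1076 and 772 bp in B6, 557 and 449 bp in MSM, 695 bp in F1 BM and 321 bp in F1 MB. Both B6 values exceeded both MSM values, with a gap of 215 bp, F1 BM fell between the strains and F1 MB was the lowest of all. The difference was -421 bp with a pooled SD of 161 bp (two-sided exact permutation p = 0.333, the lowest value attainable). The peaks inside the gene merged to a region of 1076 bp, from 57 to 1132 bp past the start, which included exon and coding sequence, and 123 bp of it were under a peak in all 6 libraries. In B6 its far edge was 1132 and 1088 bp past the start, and in MSM it was 666 and 618 bp past it, so the edges within a strain were 44 and 48 bp apart. The hybrids were split, with an edge at 1108 bp in F1 BM and at 503 bp in F1 MB. Without the peaks of a -log10 q below 5 (q being the peak caller's p-value adjusted for multiple testing), the length in B6 replicate 2 was 495 bp, under the 557 bp of MSM replicate 1, and the groups overlapped.

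Idh2 was the only member whose length was greater in both libraries of one strain by at least 200 bp. This call was made for 1 of the 9 members with a peak in B6 or MSM in the direction of B6, against 5.44% of 10668 genes, and for 0 of 9 in the direction of MSM, against 1.96%. The mean was higher in B6 at 7 members and higher in MSM at 2 (Prdx5 and Gpx1), with a median difference of -36.5 bp. Over all genes the mean was higher in MSM at 33.6%, with a median of -117.5 bp, so the members' direction followed the lists as a whole. B6 replicate 1, the list with the most peaks, exceeded B6 replicate 2 at 9 of 9 members and at 96.8% of all genes. Without B6 replicate 2 the call for B6 was made at 7 of 9 members and at 64.9% of all genes, and without MSM replicate 2 at 2 members (Idh2 and Cat) and 9.55% of all genes. Without B6 replicate 1 the call for MSM was made at 4 of 9 members and at 38.2% of all genes, so these counts moved with the lists as a whole.

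Me3, the mitochondrial NADP-dependent malic enzyme (plus strand, chr7:89632392-89854359), had 0 bp under peaks in every library, over its gene body of 221968 bp as well as around its start. A peak too weak for these lists cannot be told from an absent one.

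Sod2 encodes the manganese superoxide dismutase of the matrix (plus strand, chr17:13006846-13040063). Its length under peaks was 1565 and 648 bp in B6, 819 and 1013 bp in MSM, 1262 bp in F1 BM and 774 bp in F1 MB. The MSM libraries lay within the range of B6 and the difference of -190.5 bp was below the pooled SD of 469 bp (two-sided exact permutation p = 1). All 6 libraries shared 641 bp, from 1180 to 1820 bp past the gene start. The merged region around these bases, from 1093 to 2419 bp past the gene start, included coding sequence. At the gene start itself only B6 replicate 1 had a promoter peak, with a fold of 3.70. The fold at the principal start was 11.04 and 3.07 in B6, 7.93 and 10.6 in MSM, 4.86 in F1 BM and 5.52 in F1 MB. In rank, this corresponded to the 82.9th and 3.76th percentile in the 2 B6 libraries, and to the 77.1st and 91.0th in MSM. The 2 B6 libraries were therefore far apart in rank for the same promoter.

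Among the peroxide-removing enzymes, Cat carried the longest acetylated stretch of the 10 genes. Catalase splits hydrogen peroxide and resides mainly in peroxisomes. The gene lies on the minus strand at chr2:103453849-103485160. The length under peaks around its start was 5419 and 5281 bp in B6, 5072 and 5187 bp in MSM, 5650 bp in F1 BM and 5040 bp in F1 MB. Its range of 610 bp over 6 libraries was small beside its level, and the B6 values exceeded the MSM values by a gap of 94 bp. The difference was -220.5 bp with a pooled SD of 89.8 bp (two-sided exact permutation p = 0.333, again the lowest attainable), and it became 171 bp when every list was reduced to the same covered length. Of the bases under a peak in any library, 4911 bp or 82.9% were under a peak in all 6. This was the highest share among the members, as Gpx1 had 69.2%, Txnrd2 41.5% and Nnt 12.5%.

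The fold at the Cat promoter was 16.7 and 10.9 in B6, 14.2 and 15.9 in MSM, 9.82 in F1 BM and 11.2 in F1 MB. In every library Cat stood between the 97.3rd and the 99.0th percentile by fold among the genes with a promoter peak in that library. Acetylation extended over 5 kb into the gene, with the joined domain ending 5851 and 5783 bp past the start in B6, 5424 and 5465 bp in MSM, 5772 bp in F1 BM and 5341 bp in F1 MB. Both B6 edges lay at least 318 bp beyond both MSM edges. F1 BM lay between the strains and F1 MB below both MSM libraries. Across the whole gene 9 regions were found, 4 of them in all 6 libraries. Besides the domain at the start, they included a region from 7005 to 8586 bp past the start, and one from 18722 to 20011 bp inside an intron. The latter had a fold of 4.41 and 3.69 in B6 and of 7.86 and 9.29 in MSM, so that both MSM values were above both B6 values, while F1 BM had 5.29 and F1 MB 4.57. The fold is not on one scale across lists, and no test was made of it.

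**Figure D3:**
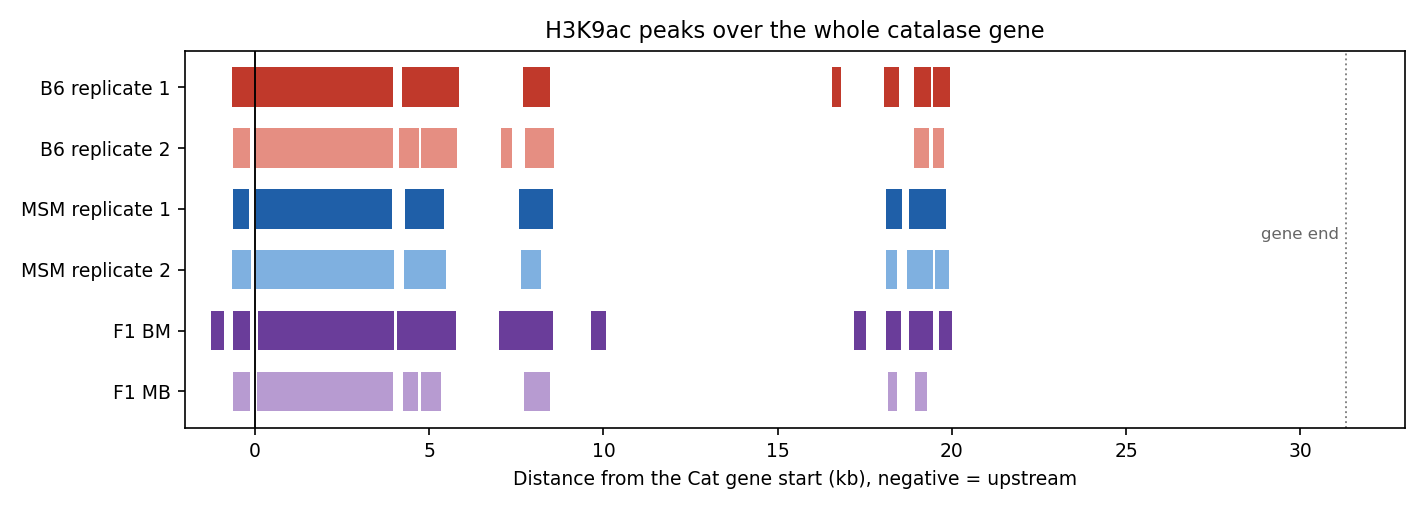
H3K9ac peaks (bars) over the whole Cat gene, with 1 row for each library and the distance from the gene start in kb on the x axis; the dotted line marks the gene end. All libraries had the long stretch from the start to over 5 kb, a region near 8 kb and an intronic region between 18722 and 20011 bp.

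Gpx1 encodes glutathione peroxidase 1, of the cytosol and mitochondria (plus strand, chr9:108338903-108340343). The gene is only 1441 bp long, and its peaks ran past its end. The length under peaks was 3656 and 2916 bp in B6, 3319 and 3678 bp in MSM, 3775 bp in F1 BM and 3198 bp in F1 MB. The strains overlapped, with a difference of 212.5 bp below the pooled SD of 411 bp (two-sided exact permutation p = 0.667). With lists of the same covered length they did not overlap, at 3020 and 2916 bp in B6 and 3103 and 3678 bp in MSM. The difference was then 422.5 bp (pooled SD 292 bp, two-sided exact permutation p = 0.333). With equally many peaks per list the strains overlapped (difference 104.5 bp, pooled SD 469 bp). A core of 2742 bp, from 454 to 3195 bp past the gene start, was under peaks in all 6 libraries. No library had a peak over the principal start, and in each of them 100% of the domain lay downstream of it. The fold ranked at the 97.1st and 46.3rd percentile in B6, the 90.9th and 79.1st in MSM, the 90.0th in F1 BM and the 65.9th in F1 MB, and was thus lowest in rank in B6 replicate 2.

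Prdx5 and Prdx3 encode peroxiredoxins, which reduce peroxides with thioredoxin; Prdx3 is a mitochondrial protein, and Prdx5 is found there and in other compartments. At Prdx5 (minus strand, chr19:6906697-6910106) the length under peaks was 2073 and 708 bp in B6, 1867 and 1666 bp in MSM, 1471 bp in F1 BM and 1178 bp in F1 MB. The MSM libraries were close to each other and inside the range of B6, and the difference of 376 bp was below the pooled SD of 690 bp (two-sided exact permutation p = 1). With lists of the same covered length, however, the length was 901 and 708 bp in B6 but 1528 and 1389 bp in MSM, and the strains did not overlap (difference 654 bp, pooled SD 119 bp, two-sided exact permutation p = 0.333). With equally many peaks per list the strains overlapped, at 2073 and 708 bp in B6 and 1528 and 1389 bp in MSM. The difference was then 68 bp with a pooled SD of 686 bp. All 6 libraries had a peak over the Prdx5 start. The start of Trmt112, on the opposite strand, lies 408 bp inside Prdx5, so the peaks around it cannot be assigned to one of the genes. A single peak over both starts was called in MSM replicate 1, and in the other 5 libraries the Trmt112 start fell in a gap between 2 peaks.

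At Prdx3 (minus strand, chr19:60864051-60874556) the length under peaks was 529 and 353 bp in B6, 364 and 450 bp in MSM, 256 bp in F1 BM and 0 bp in F1 MB. The MSM values lay within those of B6 (difference -34 bp, pooled SD 97.9 bp, two-sided exact permutation p = 1), and both hybrids were below all 4 parental libraries. The single region of 529 bp lay inside the gene from 52 to 580 bp past the start. Although Prdx3 had the lowest median length under peaks of the 9 genes with peaks, its fold was 8.14 and 8.65 in B6, 4.43 and 6.08 in MSM and 2.72 in F1 BM. Its percentile was 60.7 and 93.99 in B6, 20.8 and 52.6 in MSM and 12.4 in F1 BM, so a short length under peaks did not always go with a low fold.

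Of the 2 reductases, Txnrd2 encodes the mitochondrial thioredoxin reductase (plus strand, chr16:18426384-18479073). Its length under peaks was 4591 and 3520 bp in B6, 3506 and 3659 bp in MSM, 4100 bp in F1 BM and 2274 bp in F1 MB. The strains overlapped by a narrow margin (difference -473 bp, pooled SD 541 bp, two-sided exact permutation p = 0.667), and F1 MB was below all others. With equally many peaks per list the strains did not overlap, at 4113 and 3520 bp in B6 and 2464 and 3408 bp in MSM. The difference was then -880.5 bp (pooled SD 557 bp, two-sided exact permutation p = 0.333). With the same covered length the strains did not overlap either (difference -1051.5 bp, pooled SD 708 bp, two-sided exact permutation p = 0.333). With a -log10 q of at least 5 they overlapped (difference -742 bp, pooled SD 642 bp). Unlike at Cat and Gpx1, the length under peaks lay mostly upstream of the principal start. Between 10.9% and 34.6% of this length was downstream in the 6 libraries. The joined domain reached 3004 and 3058 bp upstream in B6, 2998 and 3125 bp in MSM, 4000 bp in F1 BM and 2245 bp in F1 MB. The 4 parental edges lay within 127 bp of each other. By fold, Txnrd2 stood between the 95.7th and the 98.9th percentile in 5 libraries, but at the 70.6th in MSM replicate 1.

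Gsr encodes glutathione reductase, of the cytosol and mitochondria (plus strand, chr8:33652523-33698163). Its length under peaks was 1995 and 367 bp in B6, 828 and 1461 bp in MSM, 1981 bp in F1 BM and 668 bp in F1 MB. The spread within B6 was far larger than the difference between the strains (difference -36.5 bp, pooled SD 873 bp, two-sided exact permutation p = 1). The 274 bp common to all libraries lay from 554 to 827 bp past the gene start and covered the principal start, which is 715 bp downstream of the gene start. Its fold ranked at the 6.59th and 3.23rd percentile in B6, the 15.9th and 72.4th in MSM, the 63.2nd in F1 BM and the 32.1st in F1 MB. Both B6 libraries ranked below the other 4, and the MSM libraries were far apart.

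**Figure D4:**
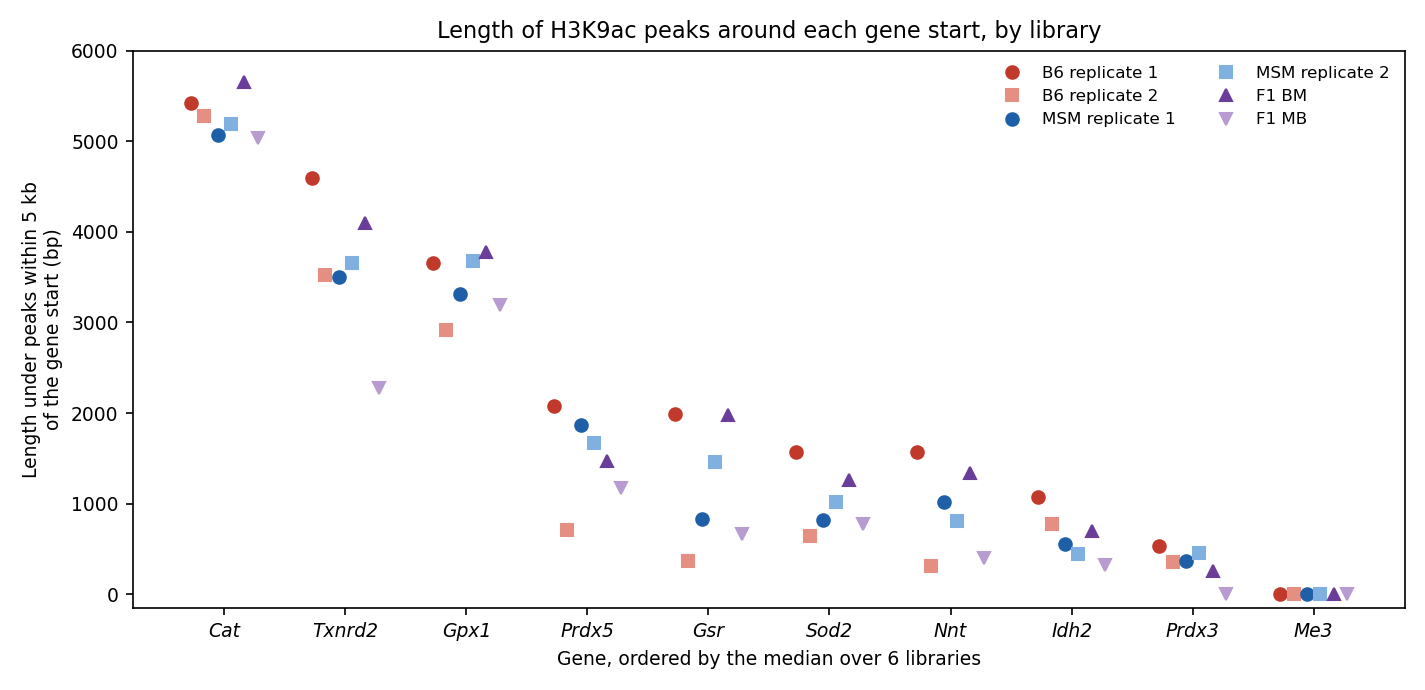
Length under H3K9ac peaks within 5 kb either side of the gene start (bp, y axis) for each of the 10 genes, with 1 point per library; circles and squares are replicates 1 and 2 of B6 (red) and MSM (blue), and triangles are the hybrids (purple). The values of Cat lay between 5040 and 5650 bp and those of Gpx1 and Txnrd2 between 2274 and 4591 bp, above the values of the other 7 genes.

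Ordered by the median over the 6 libraries, the length under peaks was 5234 bp at Cat, 3589.5 bp at Txnrd2, 3487.5 bp at Gpx1, 1568.5 bp at Prdx5, 1144.5 bp at Gsr, 916 bp at Sod2, 909 bp at Nnt, 626 bp at Idh2, 358.5 bp at Prdx3 and 0 bp at Me3. Only the step from Cat to Txnrd2 and that from Gpx1 to Prdx5 had no overlap between the ranges of neighbours. All other neighbours in the order had overlapping ranges. Since the genes were measured in the same libraries, they were also compared within each library. Prdx5 exceeded Gsr, Nnt exceeded Idh2, Idh2 exceeded Prdx3 and Prdx3 exceeded Me3 in 5 of 6 libraries, whereas Txnrd2 exceeded Gpx1 and Gsr exceeded Sod2 in 4, and Sod2 exceeded Nnt in 3. The F1 BM library exceeded F1 MB at 9 of 9 members with peaks, against 65.1% of all genes, and the lists of these libraries held 20173 and 13235 peaks. With equally many peaks per list, F1 BM exceeded F1 MB at 6 of 9 members and 45.3% of all genes, was lower at Nnt, and both were at 0 bp at Idh2 and Prdx3. With the same covered length, F1 BM was higher at 5 of 9 members and at 27.2% of all genes, so over all genes the direction turned. F1 BM was within the range of the 4 parental libraries at 6 of these members, above it at Gpx1 and Cat and below it at Prdx3, and over all genes it was within at 82.5%, above at 12.0% and below at 5.46%. F1 MB was within the range at 5 members and below it at 4 (Idh2, Prdx3, Txnrd2 and Cat), against 80.3% and 18.3% of all genes. The part of the number of peaks in this difference was not tested.

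**Figure D5:**
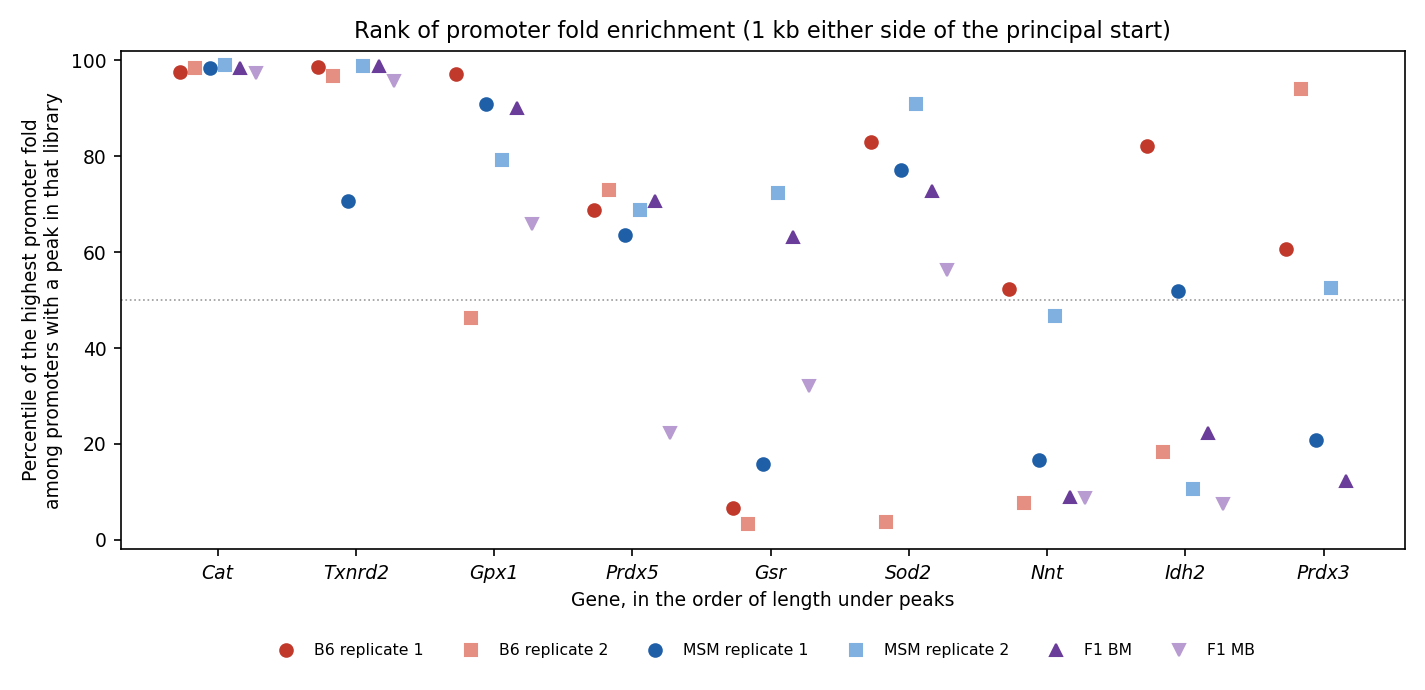
Percentile of the highest fold enrichment within 1 kb of the principal start among all genes with a promoter peak in the same library (y axis, 0 to 100), with 1 point per library and symbols as for the lengths; the dotted line marks the 50th percentile. Cat was above the 97th percentile in all 6 libraries, whereas the 2 B6 libraries differed widely at Sod2, Idh2 and Gpx1.

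The position of the peaks relative to the start differed among the members. Among the 8 members with a promoter peak at the principal start in all 6 libraries, the start base itself was under a peak in all libraries at 3 (Prdx5, Gsr and Txnrd2) and in none at 3 (Idh2, Sod2 and Gpx1). Over the 5248 genes of that kind, the start base was covered in all libraries at 11.4% and in none at 40.8%. Cat had a peak over its start in the 2 B6 libraries only, whereas in the other 4 libraries a gap of the peaks fell on the start. The median share of the length under peaks that lay downstream of the start was 83.9% over the 8 members and 77.2% over all 5248 genes.

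A wider list of 30 genes of NADPH supply and thiol-based defence was counted beside the members. Of these, 18 had a promoter peak in all 6 libraries, against 23.6% of all genes, and 20 had one at principal starts, against 24%. A peak in all libraries at the principal start and none at the gene start was found for Gpx4, which encodes the peroxidase of lipid peroxides, and for Txnrd1, the cytosolic thioredoxin reductase. At Glrx2, the mitochondrial glutaredoxin, it was found in 4 libraries. No peak was called within 5 kb of the start in any library at Me2, which encodes another mitochondrial malic enzyme, at Aldh1l2, the mitochondrial formyltetrahydrofolate dehydrogenase, or at Msra, a methionine sulfoxide reductase. Among the genes of mitochondrial folate metabolism, Mthfd2 had a promoter peak in 3 libraries at the gene start and in 0 at the principal start, and Mthfd2l had one in 1 library at either start. Nqo1, the quinone oxidoreductase, had one in 1 library, Srxn1, which encodes sulfiredoxin, in 5, and Gclc, the catalytic subunit of glutamate-cysteine ligase, in 4.

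By the same 200 bp rule, 3 of the 24 listed genes with a parental peak were longer in B6 and 0 were longer in MSM, against the 5.44% and 1.96% given above. Txn2, the mitochondrial thioredoxin that Txnrd2 reduces, had 2508 and 1936 bp in B6, 1636 and 1564 bp in MSM, 2390 bp in F1 BM and 1514 bp in F1 MB. Gclm, the modifier subunit of glutamate-cysteine ligase, had 2647 and 1488 bp in B6, 876 and 851 bp in MSM, 1551 bp in F1 BM and 691 bp in F1 MB. Prdx4, the peroxiredoxin of the secretory pathway, had 547 and 334 bp in B6 and 0 bp in the other 4 libraries. At Txn2 and Gclm, as at Idh2, F1 BM was higher than both MSM libraries and F1 MB was lower than both. The lists stood in the same order, with 20173 peaks in F1 BM, 17310 and 17584 in MSM and 13235 in F1 MB. The share of all genes with this order was not tested. The mean was higher in B6 at 17 and higher in MSM at 7 of the 24 genes, with a median difference of -289.25 bp.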

How the data were processed

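H3K9ac ChIP-seq libraries of liver were sequenced as 50-bp pairs. The paper's methods name Bowtie 2 for mapping to mm10, and the submitters' processing notes list Trim Galore, HISAT2, SAMtools and MACS2 without versions. The deposited files are 1 peak list per library, so peaks were not called on pooled replicates. For each peak the authors gave a fold enrichment (a linear ratio), the −log10 of the p-value and of the q-value, and a score that was not used. The lowest −log10 q in a list was between 1.30 and 1.35. Whether the input served as control was not given in the sources used here. Since B6 is the only reference used, MSM reads over divergent sequence could be lost. The lists hold no read counts, so depth was not used.

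Positions were analysed in Python 3.11.15 (numpy 2.4.6, scipy 1.17.1; figures with matplotlib 3.10.9). Genes on the mitochondrial chromosome were left out. The length under peaks was counted within 5 kb either side of the start, and peaks at most 500 bp apart were joined into domains. B2 copies were located with blastn 2.17.0 using a consensus of 36 young B2_Mm1a copies aligned with MAFFT 7.526 (at least 80% identity over 100 bp). The functions were tested on simulated data. Strains were compared by exact permutation (two-sided) of the 4 parental libraries, which allows 6 assignments, and alternatives were other list sizes, thresholds, windows and starts, and leaving out each library. The members and lists were chosen with earlier results of these data known. All 10 members were named; of the wider list, the genes without a promoter peak in at least 1 library and those past the 200 bp gap were named. Protein-coding genes whose start lay within 5 kb of a member's start, and the 3 genes most like Nnt by mean absolute difference in length, were named too. One item that these rules would name is not reported here.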

Additional observations from a re-analysis of the deposited data

How the results depend on the processing

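Peak lists of unequal length limited every comparison, since a missing peak cannot be told from a weak one. The 7 members with a promoter peak in all libraries became 5 with equally many peaks per list (19.0% of all genes), 4 with lists of the same covered length (11.4%) and 4 with a −log10 q of at least 5 (19.3%). Nnt and Idh2 dropped out in all 3 cases, and Gsr in the last 2. The count was 7 to 8 when a library was left out, and 8 without F1 MB, where Prdx3 lacked a peak; leaving out the F1 libraries was added after seeing the data. Members longer in MSM numbered 1 (Prdx5) with the same covered length (9.87% of all genes with a parental peak under that setting), and 0 to 4 when a library was left out. Members longer in B6 numbered 0 with a −log10 q of at least 5 (5.47%), 2 within a window of 2 kb (Idh2 and Txnrd2; 5.31%), 2 with any gap above 0 bp (Idh2 and Cat; 12.1%), and 1 to 7 when a library was left out. The cause of these changes was not tested. The difference, MSM minus B6, changed sign at Sod2 (133.5 bp with a −log10 q of at least 5), Prdx3 (48.5 bp with the same covered length), Gsr (254 bp with equally many peaks per list, 293.5 bp with the same covered length), Gpx1 (-29 bp within 2 kb) and Cat (171 bp with the same covered length). Beyond the B2 copy of Nnt it was 0 bp with the same covered length. With each library left out in turn, it ranged from -660 to 598 bp at Nnt, -573 to -269 bp at Idh2, -649 to 268 bp at Sod2, -122 to 54 bp at Prdx3, -306.5 to 1058.5 bp at Prdx5, -850.5 to 777.5 bp at Gsr, -1008.5 to 62.5 bp at Txnrd2, -157.5 to 582.5 bp at Gpx1, -289.5 to -151.5 bp at Cat, and 0 to 240 bp beyond the B2 copy of Nnt.

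The deviations of same-numbered B6 and MSM libraries had r = 0.020 across 10668 genes, which are not independent, over 2 pairs. With 2 libraries per strain, this r compares a single difference per strain. It cannot decide whether same-numbered libraries shared a batch, and the numbers were taken as names only. With the replicate number as a block, the differences cannot change (-31 bp at Nnt, 120 bp beyond its B2 copy, -421 bp at Idh2). The SD of the 2 paired differences was 742 bp at Nnt, 170 bp beyond its B2 copy and 139 bp at Idh2. The smallest p that an exact test by sign changes of 2 pairs allows is 0.5.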
